A study of Mus musculus with 4 samples.

Results

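The genes described here encode hydrolases, membrane proteins and regulators of the lysosome, 32 in all of 19938 genes on the array. They were chosen by name, and a gene with several probe sets was represented by the probe set with the highest mean over the arrays. All 32 were measured, and all 32 lay above the median of all probe sets on each of the 4 arrays, so none entered the test through a single group. The samples were mouse bone marrow cells of C57BL/6J origin grown for 7 days in 10% serum medium with a macrophage growth factor and then sorted. The 2 GM-CSF arrays held cells grown in GM-CSF, the granulocyte-macrophage colony-stimulating factor, named M1 by the submitters and sorted as CD45+, MHCII+, CD8a- and F4/80+. The 2 M-CSF arrays held cells grown with M-CSF (macrophage colony-stimulating factor). Its source was 20% supernatant from L929 cells, a fibroblast line. The submitters named these M2 and sorted them as CD45+, F4/80+ and CD11b+. Growth factor, supernatant and sort gate differed together, so their parts cannot be told apart.

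Lysosomes are acidic vesicles in which macrophages digest what they engulf. Their soluble hydrolases are made in the endoplasmic reticulum, receive a mannose-6-phosphate tag and are carried to the lysosome by sorting receptors, while a proton pump, the V-ATPase, keeps the interior acidic. Transcription factors of the MiT/TFE family, which holds TFEB, TFE3, MITF and TFEC, bind CACGTG-type elements near the start of many lysosomal genes, and loss of single hydrolases causes storage diseases. The comparison asks whether cells raised with GM-CSF and with M-CSF carried different amounts of RNA for this machinery. The arrays measured RNA and not protein or enzyme activity, and fewer cells of a type cannot be told apart from less RNA per cell.

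All values are log2 expression values, so a difference of 1 is 2-fold. Over the 4 arrays the values ran from 1.551 to 13.947. Precision is limited by having 2 arrays per group. Whether the replicates came from different cultures or mice is not given in the labels, and the p-values therefore cover only the spread between these RNA samples. The GM-CSF pair lay farther apart than the M-CSF pair. Over the 32 lysosomal genes the difference between replicates had an SD of 0.231 for GM-CSF and 0.082 for M-CSF, against 0.325 and 0.18 over the 14995 genes tested. GM-CSF replicate 1 also stood apart in Xist, a non-coding RNA that coats the silenced X chromosome, which read 11.58 there and 4.93 in GM-CSF replicate 2, against 4.53 and 4.80 in the M-CSF arrays. Eif2s3y, a Y-linked gene, read 3.66 in GM-CSF replicate 1 and 9.10 in GM-CSF replicate 2, against 9.32 and 9.17 in the M-CSF arrays. By these genes GM-CSF replicate 1 read as female and the other 3 arrays as male, so the GM-CSF pair did not come from the same mouse, and its spread includes a difference in sex. For the M-CSF pair the spread may be technical. Gla, Ids, Lamp2 and Tfe3 are X-linked. Without GM-CSF replicate 1, GM-CSF minus M-CSF was -0.18 for Gla, -0.16 for Ids, -0.02 for Lamp2 and -0.03 for Tfe3. With all 4 arrays it was -0.11, -0.27, 0.06 and -0.15. The part of the difference in sex between the GM-CSF arrays in these values was not tested. Macrophage markers were high in both groups, with a mean over 7 genes of 11.63 and 11.77 in GM-CSF and 11.37 and 11.29 in M-CSF arrays. Of these Cd14 rose in GM-CSF cells (1.66) and the other 6 did not pass.

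Sequences upstream of 3 lysosomal genes are given because 2 of these genes, Sgsh and Fuca1, were the ones that passed the test. Mcoln1 is an example of the genes that carried the CACGTG element, there at 2 places, and did not pass. Cln3, Gla and Lamp1 also carried it at 2 or more places and did not pass. Each sequence is the 250 bases before the transcription start from RefSeq (GRCm38.p6), written 5′ to 3′ on the gene's strand, with CACGTG in capitals. Sgsh lies on the minus strand (chr11:119355511-119355760), Fuca1 on the plus strand (chr4:135920476-135920725) and Mcoln1 on the plus strand (chr8:3500269-3500518).
Sgsh: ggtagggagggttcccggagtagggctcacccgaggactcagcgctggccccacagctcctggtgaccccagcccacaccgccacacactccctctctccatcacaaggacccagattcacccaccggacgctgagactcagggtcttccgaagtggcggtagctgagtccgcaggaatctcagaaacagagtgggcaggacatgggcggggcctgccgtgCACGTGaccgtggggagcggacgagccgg
Fuca1: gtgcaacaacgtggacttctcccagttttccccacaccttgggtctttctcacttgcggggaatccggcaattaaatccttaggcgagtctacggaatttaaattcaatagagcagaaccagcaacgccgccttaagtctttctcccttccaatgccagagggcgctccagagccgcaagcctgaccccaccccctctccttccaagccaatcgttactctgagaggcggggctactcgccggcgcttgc
Mcoln1: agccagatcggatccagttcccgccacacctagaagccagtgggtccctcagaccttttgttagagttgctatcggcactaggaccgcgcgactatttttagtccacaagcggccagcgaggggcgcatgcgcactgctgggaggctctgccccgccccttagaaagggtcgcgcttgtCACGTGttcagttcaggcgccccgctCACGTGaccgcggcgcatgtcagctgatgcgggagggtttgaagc

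The element CACGTG, which reads the same on both strands, was searched in the window of 250 bases before and 50 after each start. It was present for 9 of the 31 lysosomal genes with a promoter in the table, namely Arsa, Cln3, Gaa, Gla, Glb1, Lamp1, Mcoln1, Naglu and Sgsh. That is 9 of their 37 promoters (24.3%), against 7.15% of all 32851 promoters. The element was searched because it is known from lysosomal genes, so these shares are a description and not a test. The longer TCACGTG, searched on both strands and overlapping CACGTG by construction, was present for the same 9 genes and in 3.77% of all promoters. In Sgsh the element began 29 bases before the start, in Mcoln1 71 and 45 bases before it, and in Lamp1 at 4 places 61, 45, 28 and 15 bases before it. A match describes the letters in this window and nothing about binding in these cells.

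Most lysosomal genes did not differ detectably between the groups. Fuca1 rose and Sgsh fell in GM-CSF cells, and the other 30 did not pass (limma, Benjamini-Hochberg adjusted p under 0.05 over 14995 genes). That is 1 gene higher and 1 lower, or 6.25% of the members, where 6.18% of all genes tested were higher and 4.53% lower, 10.7% together. The median difference, GM-CSF minus M-CSF, was -0.006 over the 32 genes and -0.013 over all genes tested, and the median size of the difference was 0.161 and 0.155. No lysosomal gene reached a 2-fold difference, a size that 4.83% of all genes tested reached. The differences ran from -0.72 for Sgsh to 0.98 for Fuca1.

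The arrays of the groups did not overlap for 23 of the 32 genes (71.9%), with 11 wholly higher and 12 wholly lower in GM-CSF cells. The share over all genes tested was 55.4%, with 26.3% wholly higher and 29.2% wholly lower. At an unadjusted p under 0.05, 9 of the 32 genes were counted (28.1%), 4 higher and 5 lower, against 25.5% of all genes. For the 30 genes that did not pass, the 95% interval of each difference, unadjusted, lay within 1 on the log2 scale in either direction for all 30 and within 0.5 for 18. The lowest bound was -0.87, for Acp2, and the highest 0.74, for Arsb, so a 2-fold difference lay outside every one of these intervals.

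**Figure D1:**
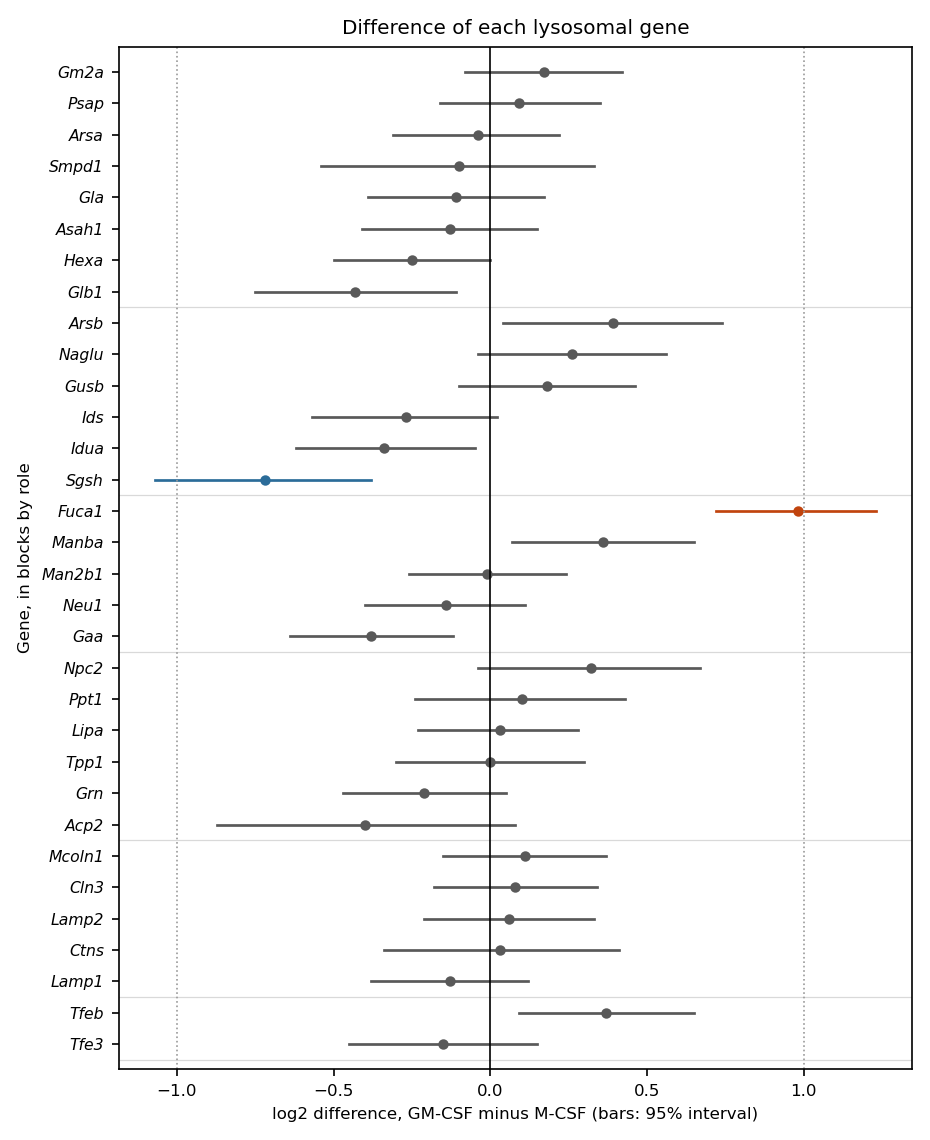
Log2 difference, GM-CSF minus M-CSF (x axis), of each lysosomal gene (y axis, in blocks by role), with 95% intervals from limma as bars (2 arrays per group) and dotted lines at 2-fold. Fuca1 (0.98, orange) and Sgsh (-0.72, blue) passed the test, and the other 30 genes, in grey, lay between -0.43 and 0.39.

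Fuca1, the lysosomal fucosidase that removes fucose from glycoproteins and glycolipids, was the member that rose. It read 10.22 and 10.20 in GM-CSF cells, against 9.28 and 9.18 in M-CSF cells. Both GM-CSF arrays were higher than both M-CSF arrays. The GM-CSF arrays nearly coincided, and the M-CSF arrays lay 0.1 apart. Fuca1 differed by 0.98 ± 0.11 (SE, 2 arrays per group), or 1.97-fold (limma adjusted p = 0.00346), with a 95% interval from 0.72 to 1.23. It was 0.96 without GM-CSF replicate 1, the array that read as female (limma adjusted p = 9.08e-05). The call was lost in fits without M-CSF replicate 1 (1.03, limma adjusted p = 0.0667) and without M-CSF replicate 2 (0.93, adjusted p = 0.0849).

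The other 4 genes that act on glycoproteins or glycogen did not pass. Manba, the beta-mannosidase, read 8.75 and 8.53 in GM-CSF cells, against 8.31 and 8.24 in M-CSF cells, a difference of 0.36 ± 0.12 (limma adjusted p = 0.124). Man2b1, the alpha-mannosidase, differed by -0.01 ± 0.10, with 11.35 and 11.37 in GM-CSF and 11.36 and 11.38 in M-CSF cells. The 4 Man2b1 values nearly coincided, while the groups did not overlap for Manba. Neu1, the sialidase that removes terminal sialic acid, differed by -0.14 ± 0.10. Gaa, which breaks down glycogen and is lost in Pompe disease, read 9.28 and 9.16 in GM-CSF cells, against 9.60 and 9.60 in M-CSF cells. Its difference of -0.38 ± 0.11 had the lowest adjusted p of the genes that did not pass (0.0822, limma) and passed without GM-CSF replicate 1 (-0.44, adjusted p = 0.032) but not without GM-CSF replicate 2 (-0.31, adjusted p = 0.119).

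Sgsh, the sulfamidase that strips N-linked sulfate from heparan sulfate and is lost in Sanfilippo syndrome, was the member that fell. It read 7.99 and 8.31 in GM-CSF cells, against 8.93 and 8.82 in M-CSF cells. The groups did not overlap, and the GM-CSF arrays lay farther apart than the M-CSF arrays. Sgsh was lower by 1.65-fold in GM-CSF cells, a log2 difference of -0.72 ± 0.14 (adjusted p = 0.0263 with limma), with a 95% interval from -1.07 to -0.38. Leaving out GM-CSF replicate 1 gave -0.56 (limma adjusted p = 0.00845), and leaving out replicate 2 gave -0.89 (0.000163). Without M-CSF replicates 1 and 2 in turn it was -0.67 (limma adjusted p = 0.249) and -0.78 (adjusted p = 0.195).

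The other 5 glycosaminoglycan enzymes did not pass, and their directions were mixed. Ids and Idua remove sulfate and iduronic acid at an earlier step of heparan and dermatan sulfate breakdown. Ids read 8.76 and 8.98 in GM-CSF cells, against 9.12 and 9.17 in M-CSF cells, a difference of -0.27 ± 0.12. Idua read 9.88 and 9.70 in GM-CSF cells, against 10.09 and 10.16 in M-CSF cells, a difference of -0.34 ± 0.12 (limma adjusted p = 0.132). Both lay wholly lower in GM-CSF cells, as Sgsh did. Naglu, the glucosaminidase that acts later on heparan sulfate, lay wholly higher, at 9.19 and 8.95 in GM-CSF and 8.79 and 8.83 in M-CSF cells (0.26 ± 0.12). Gusb, the beta-glucuronidase, and Arsb, the sulfatase of dermatan and chondroitin sulfate, were also wholly higher, with differences of 0.18 ± 0.12 and 0.39 ± 0.14. Arsb was the only member with a second probe set, which gave a difference of 0.15.

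None of the 8 genes of sphingolipid breakdown passed. Hexa, the beta-hexosaminidase alpha subunit lost in Tay-Sachs disease, read 11.52 and 11.52 in GM-CSF cells, against 11.78 and 11.76 in M-CSF cells (-0.25 ± 0.10). Gm2a, the activator that lifts its ganglioside substrate out of the membrane, read 12.19 and 12.19 in GM-CSF cells, against 12.04 and 12.01 in M-CSF cells (0.17 ± 0.10). The enzyme subunit and its activator lay on opposite sides, each by a small step that did not pass (limma adjusted p = 0.194 and 0.375). Glb1, the beta-galactosidase, had the lowest difference of the group at -0.43 ± 0.13, with 9.67 and 9.37 in GM-CSF and 9.97 and 9.93 in M-CSF cells. It passed without GM-CSF replicate 1 (-0.58, limma adjusted p = 0.00619), which leaves the lower GM-CSF array, but differed by -0.28 without GM-CSF replicate 2 (adjusted p = 0.172).

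The remaining sphingolipid genes differed by less. Psap, the precursor of the saposin activators, read 13.49 and 13.41 in GM-CSF cells, against 13.35 and 13.36 in M-CSF cells (0.09 ± 0.10). Gla, the alpha-galactosidase of Fabry disease, differed by -0.11 ± 0.12, Arsa, the sulfatase of sulfatide, by -0.04 ± 0.11 and Asah1, acid ceramidase, by -0.13 ± 0.12. Smpd1, acid sphingomyelinase, read 9.29 and 8.79 in GM-CSF cells, against 9.21 and 9.06 in M-CSF cells, so the M-CSF arrays lay between the GM-CSF arrays. Its difference of -0.10 ± 0.18 turned to 0.15 without GM-CSF replicate 2.

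Among the genes that process lipids, proteins and phosphate esters, none of 6 passed. Lipa, the acid lipase that frees cholesterol from its esters, differed by 0.03 ± 0.11, with 12.20 and 12.10 in GM-CSF and 12.13 and 12.12 in M-CSF cells. Npc2, which hands that cholesterol on to the membrane protein NPC1, read 11.13 and 11.49 in GM-CSF cells, against 11.03 and 10.95 in M-CSF cells (0.32 ± 0.15). Npc2 was wholly higher in GM-CSF cells and passed without GM-CSF replicate 1 (0.50, limma adjusted p = 0.0178), but differed by 0.14 without GM-CSF replicate 2 (adjusted p = 0.557). Tpp1, a tripeptidyl peptidase, and Ppt1, which removes fatty acids from proteins, differed by -0.0019 ± 0.12 and 0.10 ± 0.14. Grn, the progranulin gene, was wholly lower in GM-CSF cells, at 12.52 and 12.56 there, against 12.69 and 12.80 in M-CSF cells (-0.21 ± 0.11). The Grn difference shrank to -0.10 after quantile normalization.

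Acp2, a lysosomal acid phosphatase, had the widest spread within the GM-CSF pair. It read 10.78 and 11.37 in GM-CSF cells, against 11.48 and 11.46 in M-CSF cells. GM-CSF replicate 1 lay well below the other 3 arrays, and GM-CSF replicate 2 just below the M-CSF arrays. The difference was -0.40 ± 0.20 (limma adjusted p = 0.274), -0.10 when GM-CSF replicate 1 was left out and -0.69 when replicate 2 was (adjusted p = 0.0013).

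None of the 5 membrane proteins and transporters passed. Their differences lay between -0.13 and 0.11, with a median size of 0.076. Lamp1 and Lamp2, the heavily glycosylated proteins that line the lysosome membrane, differed by -0.13 ± 0.10 and 0.06 ± 0.11. Lamp1 read 12.32 and 12.28 in GM-CSF cells, against 12.44 and 12.41 in M-CSF cells. Mcoln1, the calcium channel TRPML1, read 10.46 and 10.33 in GM-CSF cells, against 10.31 and 10.26 in M-CSF cells (0.11 ± 0.11). Cln3, a membrane protein lost in juvenile Batten disease, and Ctns, the cystine transporter, differed by 0.08 ± 0.11 and 0.03 ± 0.15. The upper bounds of the 5 intervals were at most 0.41, and the lower bounds at least -0.38.

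**Figure D2:**
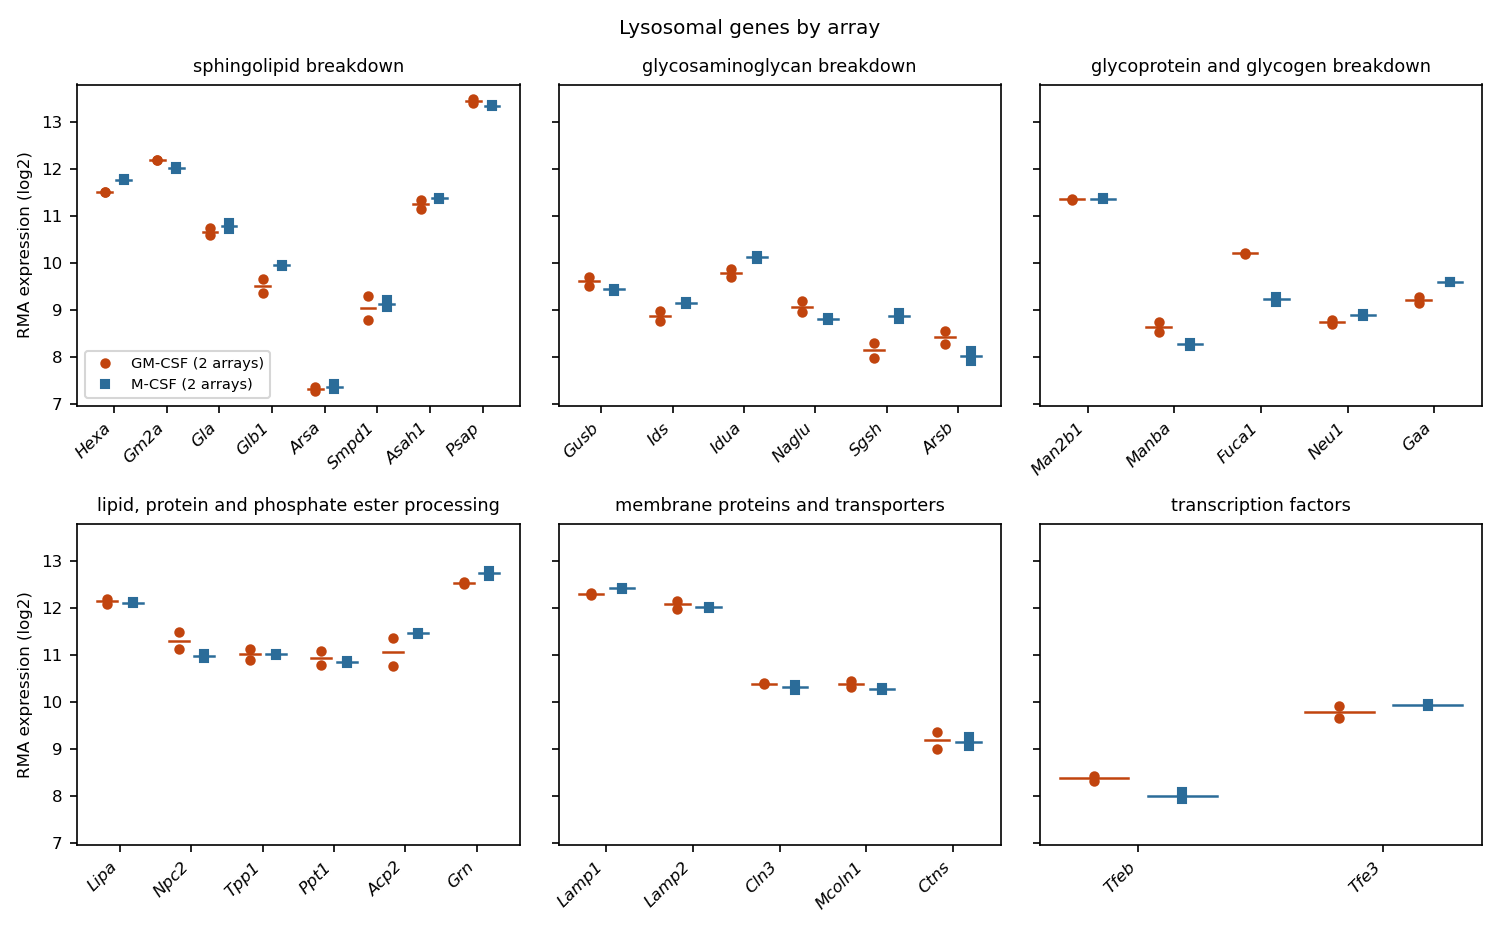
RMA expression (y axis, log2) of the 32 lysosomal genes on each array, in panels by role, with GM-CSF arrays as orange circles, M-CSF arrays as blue squares and group means as lines. Fuca1 (10.22 and 10.20 against 9.28 and 9.18) and Sgsh (7.99 and 8.31 against 8.93 and 8.82) show the widest gaps between groups, and heights of different genes are not comparable because probe sets differ in response.

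Tfeb and Tfe3, transcription factors that switch on lysosomal genes when they enter the nucleus, did not pass. Tfeb read 8.43 and 8.32 in GM-CSF cells, against 7.94 and 8.08 in M-CSF cells, a difference of 0.37 ± 0.11 (limma adjusted p = 0.1) with an unadjusted interval from 0.09 to 0.65. Tfe3 read 9.67 and 9.92 in GM-CSF cells, against 9.97 and 9.93 in M-CSF cells (-0.15 ± 0.12, adjusted p = 0.523). Tfeb was wholly higher and Tfe3 wholly lower in GM-CSF cells. Tfeb passed without GM-CSF replicate 2 (0.42, limma adjusted p = 0.0396) but not without GM-CSF replicate 1 (0.32, adjusted p = 0.145). These factors are controlled largely by where in the cell they sit, which RNA levels do not show.

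The related family members Mitf and Tfec showed wider gaps than Tfeb and Tfe3. Mitf rose in GM-CSF cells, with 10.00 and 9.92 there, against 9.31 and 9.01 in M-CSF cells. Mitf differed by 0.80 ± 0.13 (adjusted p = 0.0163 with limma), or 1.74-fold. A second, dim Mitf probe set read 3.38 and 3.04 in GM-CSF cells, against 3.09 and 2.85 in M-CSF cells, and averaging both gave 0.52 (limma adjusted p = 0.072). Tfec, a family member found mainly in macrophages and osteoclasts, read 11.28 and 9.74 in GM-CSF cells, against 9.15 and 9.07 in M-CSF cells. Both GM-CSF arrays were higher, by very different amounts, and the difference of 1.40 ± 0.45 did not pass (limma adjusted p = 0.113). It was 0.63 when GM-CSF replicate 1 was left out and 2.17 when replicate 2 was.

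Around the 32 genes, 6 lists of related genes were counted in the same fit, 101 genes in all. Of these 8 rose in GM-CSF cells and 4 fell (11.9%, where 10.7% of all genes tested were called), the rest did not pass, and their median difference was 0.039. The medians of the 6 lists lay between -0.063 and 0.123. Without GM-CSF replicate 1 the differences of these 12 ran from -0.87 for Pla2g15 to 3.74 for Atp6v0d2. In fits without M-CSF replicate 1 or 2, the calls of the related and lysosomal genes were lost, as were most calls over all genes tested. Each such fit takes its spread from the GM-CSF pair, which lay farther apart.

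The V-ATPase list held the widest gap. Atp6v0d2, a subunit of the membrane part of the pump that is known from osteoclasts and fusing macrophages, read 12.03 and 10.71 in GM-CSF cells, against 6.98 and 6.95 in M-CSF cells. Both GM-CSF arrays lay far above the M-CSF arrays, and GM-CSF replicate 1 was the higher. The difference was 4.40 ± 0.39, or 21.1-fold (adjusted p = 0.00158 with limma), and it was 3.74 when GM-CSF replicate 1 was left out and 5.06 when replicate 2 was. The call was narrowly lost without M-CSF replicate 1 (limma adjusted p = 0.0573) and replicate 2 (0.061), with differences of 4.41 and 4.39. Atp6v1g1, a subunit of the stalk of the pump, fell, at 9.33 and 9.15 in GM-CSF cells, against 9.89 and 9.76 in M-CSF cells (-0.58 ± 0.12, adjusted p = 0.0308 with limma). The other 21 of 23 subunits did not pass, and the median of the list was 0.092. Among these, Atp6v0a4, Atp6v1b1, Atp6v1c2 and Atp6v1g3 were dim, above the array median on none of the arrays, so a difference would be hard to see. Atp6v0d1, the widely expressed form of the d subunit, differed by 0.09 ± 0.12.

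Sort1, the sorting receptor sortilin that carries some hydrolases and activators to the lysosome, rose in GM-CSF cells. It read 10.26 and 9.50 there, against 8.48 and 8.18 in M-CSF cells, a difference of 1.55 ± 0.25, or 2.93-fold (adjusted p = 0.0148 with limma). It was 1.17 when GM-CSF replicate 1 was left out and 1.93 when replicate 2 was. The other 10 genes of the mannose-6-phosphate and sorting list did not pass. Gnptab and Gnptg, subunits of the enzyme that starts the mannose-6-phosphate tag, differed by -0.38 ± 0.11 and -0.36 ± 0.12, and Igf2r, a receptor for the tag, by 0.29 ± 0.16.

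Of the 15 other lysosomal hydrolases tested, 1 was higher, 2 were lower and 12 did not pass. Pld3, a nuclease of the endolysosome, rose (11.41 and 11.38 in GM-CSF cells, against 10.74 and 10.70 in M-CSF cells, difference 0.68 ± 0.10, limma adjusted p = 0.0113). Pla2g15, the lysosomal phospholipase A2, fell (9.84 and 9.54 in GM-CSF, against 10.45 and 10.37 in M-CSF cells, difference -0.72 ± 0.13). Hgsnat, which acetylates heparan sulfate in the step after Sgsh, also fell (9.41 and 9.45 in GM-CSF, against 10.01 and 9.84 in M-CSF cells, difference -0.50 ± 0.11, limma adjusted p = 0.0439). Hgsnat did not pass with no filter on dim genes (0.0631), with median centring (0.0546) or with the replicate block (0.059). Lyz2, the macrophage lysozyme, read 13.31 and 13.24 in GM-CSF and 13.27 and 13.28 in M-CSF cells.

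Among 15 other membrane proteins, Cd63, a tetraspanin of late endosomes, rose (11.57 and 11.06 in GM-CSF, against 10.55 and 10.50 in M-CSF cells, difference 0.79 ± 0.18, limma adjusted p = 0.0411), and the other 14 did not pass. Cd63 did not pass with no filter on dim genes (0.054). Among 17 lysosome regulators, Mitf and Lamtor4 rose and Flcn fell. Lamtor4, a subunit of the Ragulator complex that holds mTORC1 at the lysosome, read 10.32 and 10.40 in GM-CSF cells, against 9.66 and 9.58 in M-CSF cells (0.74 ± 0.11, limma adjusted p = 0.00937). Flcn, folliculin, which acts on the Rag GTPases that control TFEB and TFE3, read 8.38 and 8.21 in GM-CSF cells, against 8.86 and 8.78 in M-CSF cells (-0.52 ± 0.11, adjusted p = 0.0376, and 0.0535 with no filter). Lamtor1, Lamtor2, Lamtor3 and Lamtor5, the other Ragulator subunits, differed by 0.02, 0.22, -0.23 and -0.21 and did not pass.

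Of 20 autophagy genes, 2 rose and 18 did not pass. Wipi1, which binds the growing autophagosome membrane, differed by 0.66 ± 0.12 (limma adjusted p = 0.0205), with 7.91 and 7.69 in GM-CSF and 7.15 and 7.13 in M-CSF cells. Atg9a, a membrane protein that feeds that membrane, differed by 0.61 ± 0.13 (adjusted p = 0.0396), and did not pass with no filter (0.0546) or after quantile normalization (0.0589). Sqstm1, the cargo receptor p62, differed by 0.02 ± 0.11. Gabarapl1, a relative of LC3, read 10.20 and 9.77 in GM-CSF cells, against 9.37 and 9.24 in M-CSF cells, just short of the threshold (0.68 ± 0.16, adjusted p = 0.0509).

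**Figure D3:**
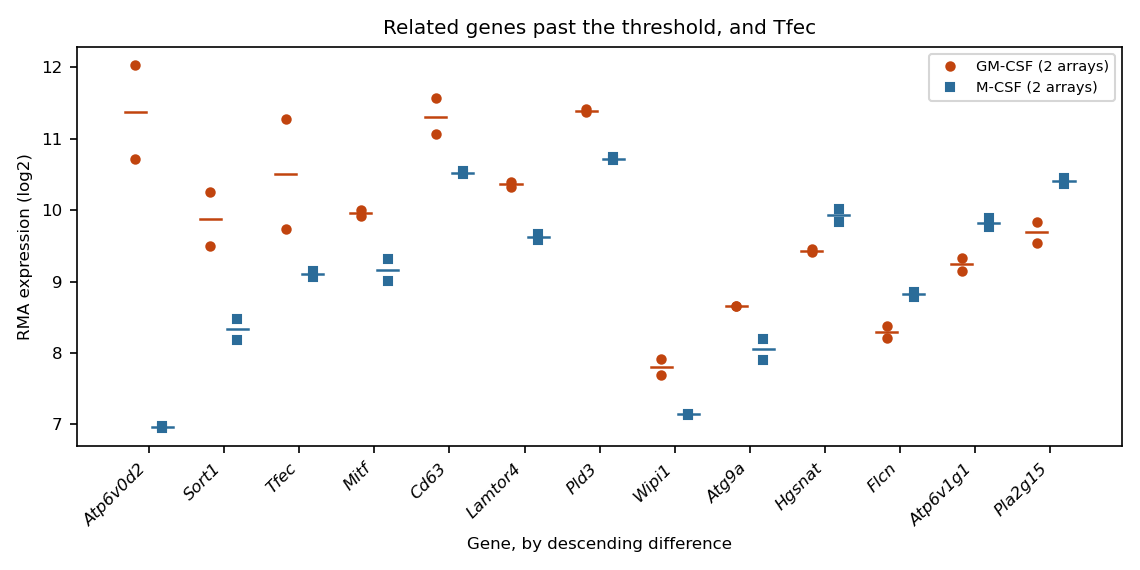
RMA expression (y axis, log2) on each array of the 12 related genes that passed the test and of Tfec, ordered by difference, with GM-CSF arrays as orange circles, M-CSF arrays as blue squares and group means as lines. Atp6v0d2 had the widest gap (12.03 and 10.71 against 6.98 and 6.95), and the GM-CSF arrays of Tfec lay far apart (11.28 and 9.74).

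**Figure D4:**
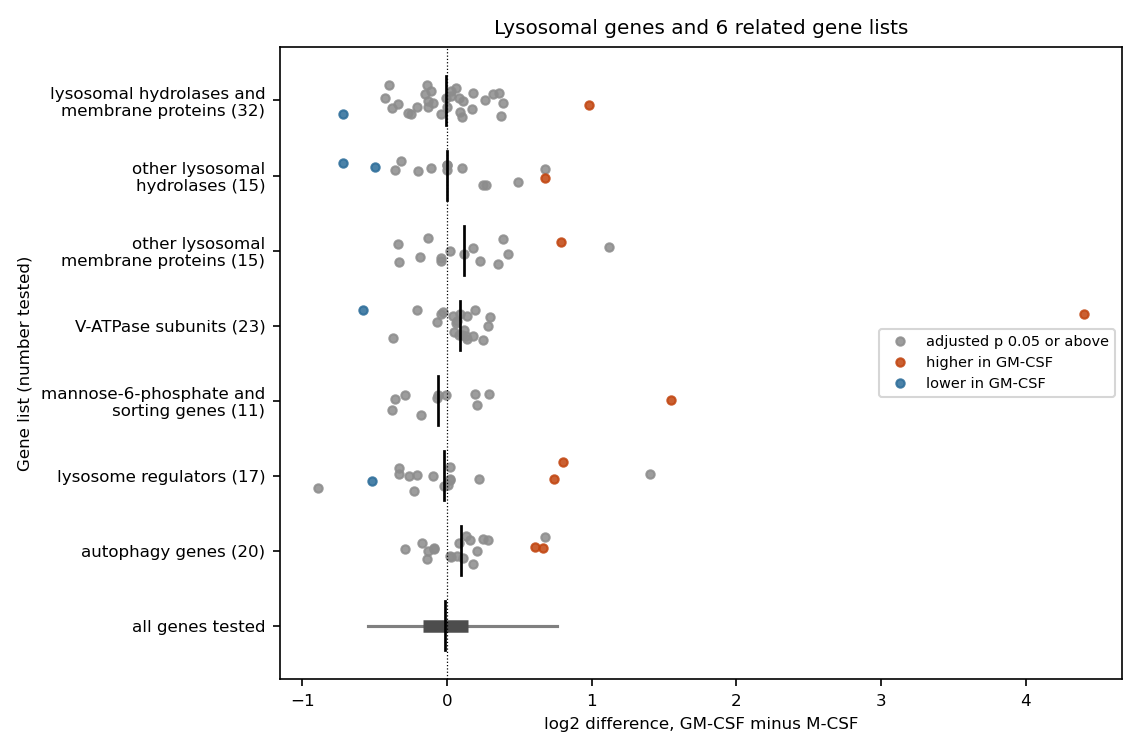
Log2 difference, GM-CSF minus M-CSF (x axis), of each gene of the lysosomal set and of the 6 related lists (y axis, number tested in brackets), with list medians as black lines. The bottom bar shows all genes tested from the 5th (-0.547) to the 95th percentile (0.757), with the middle box from the 25th (-0.164) to the 75th (0.144).

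Some markers of dendritic cells also differed between the groups. Of 7 dendritic markers, Itgax (4.53), Clec9a (2.44) and Ccr7 (1.16) were higher in GM-CSF cells and 4 did not pass. Of these 4, Zbtb46 (0.25) and Cd209a (0.61) lay wholly higher in GM-CSF cells. Flt3 (-0.32) and Dpp4 (-0.08) lay wholly lower, with Flt3 at 4.93 and 5.24 in GM-CSF cells, against 5.36 and 5.44 in M-CSF cells. The mean over the 7 was 6.97 and 6.71 in GM-CSF and 5.59 and 5.63 in M-CSF arrays. The neutrophil list, of which Mpo fell and 6 of 7 did not pass, had means of 6.53 and 6.01 in GM-CSF and 6.01 and 6.05 in M-CSF arrays. S100a8 read 8.54 and 7.04 in GM-CSF and 6.96 and 6.84 in M-CSF cells. GM-CSF replicate 1 was thus highest, as it was for Atp6v0d2, Tfec and Sort1. S100a9, Ltf and Ly6g also read higher in GM-CSF replicate 1 than in replicate 2, and Camp, Mpo and Elane read lower. GM-CSF replicate 1 was the higher of its pair for 21 of the 32 lysosomal genes and for 6591 of the 14995 genes tested. In the fibroblast list Dcn rose (1.07) and the other 3 genes tested did not pass, with Col1a1 (-0.29) and Col1a2 (-0.16) wholly lower and Pdgfrb (0.57) wholly higher in GM-CSF cells. The means over 5 genes were 6.29 and 6.22 in GM-CSF and 6.00 and 5.98 in M-CSF arrays. Markers of eosinophils, basophils and mast cells averaged 5.86 and 5.04 in GM-CSF and 4.96 and 5.11 in M-CSF arrays over 4 genes, and lymphocyte markers 5.05 and 5.09 in GM-CSF and 5.19 and 5.29 in M-CSF arrays over 4 genes, below the array medians of 6.18 to 6.23. The part of these cells in the differences of Fuca1, Sgsh, Atp6v0d2, Sort1 and the other genes was not tested.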

How the data were processed

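Each sample's 300 ng of total RNA went through random-primed amplification and biotin labelling before hybridisation to a 1-colour array, per the labels' protocols. The deposited table holds RMA values on the log2 scale for each probe set, for which the submitters' processing notes name Affymetrix Expression Console 1.1. RMA brings the probe intensities of all arrays to a shared distribution, so a change in total RNA per cell cannot be seen. The array medians of the probe set values still ran from 6.18 to 6.23. Detection calls, scan dates and the files' genome build were not given in the sources used here.

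Of 35556 probe sets, 21789 had exactly 1 gene symbol in the platform annotation, 1621 had several and 12146 had none listed. A gene was represented by its probe set with the highest mean, and tested when at least 2 arrays lay above the 30th percentile of their array, which left 14995 of 19938 genes. limma 3.58.1 in R 4.3.3 (lmFit, eBayes, 2 residual and 4.165 prior degrees of freedom, two-sided) compared 2 GM-CSF with 2 M-CSF arrays, with Benjamini-Hochberg adjustment over all genes tested. Intervals cover 95% and are unadjusted. On simulated data (14995 genes, 50 changed per size) 0% of the genes changed by 0.5 on the log2 scale were recovered. The shares were 62% for changes of 1 and 96% for changes of 2. The simulation changed far fewer genes than the 10.7% called in the real fit, which makes the adjustment stricter. It also gave both groups equal spread. The real fit called some differences near 0.5, such as Flcn (-0.52), so these shares do not measure its recovery. Promoters came from RefSeq (GRCm38.p6), and 31 of the 32 genes matched by symbol (not Asah1). Python 3.11.15 and matplotlib 3.10.9 made the tables and plots.

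The members and gene lists were chosen with earlier results of these data known. All 32 members are named. From each related list, up to 4 genes past the threshold with the largest difference are named, with Mitf and Tfec, and other list genes were named after their values were seen. Same-numbered arrays did not deviate together (r = 0.065 across genes), so the replicate block is an alternative only.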

Additional observations from a re-analysis of the deposited data

How the results depend on the processing

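Fuca1 stayed higher and Sgsh lower, past the threshold, with no filter, a stricter filter, quantile normalization, median centring, the mean of all probe sets, trended and robust variances and the replicate block, and each of these settings called 1 member higher and 1 lower. Neither gene has a second probe set, so the mean of all probe sets could not change its values. The filters likewise leave both differences as they were and act only through the set of genes tested. The replicate block gave adjusted p (limma) of 0.00592 for Fuca1 and 0.0334 for Sgsh. At an adjusted p under 0.01, 1 member was higher and 0 lower, against 438 and 223 of all genes tested. Leaving out each array in turn gave 0 to 4 members higher and 0 to 4 lower, 168 to 1683 of all genes higher and 65 to 1522 lower, and 0 to 18 related genes higher and 0 to 10 lower. The highest counts came without a GM-CSF array, where the spread is that of the M-CSF arrays, which lie nearer each other. Such a fit assumes equal spread in both groups. With no filter, 2 related genes were lower in place of 4, with more genes tested. The median over members ran from -0.047 to 0.081 without single arrays, against -0.006.

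Signs turned without single arrays for genes near 0, none of them past the threshold: the differences ran from -0.10 to 0.01 for Arsa, with 0.0014 without GM-CSF replicate 1, from -0.35 to 0.15 for Smpd1, from -0.03 to 0.08 for Lipa, from -0.12 to 0.12 for Tpp1, from -0.06 to 0.25 for Ppt1, from -0.02 to 0.14 for Lamp2 and from -0.15 to 0.21 for Ctns. The cause was not tested. Over all members and settings, 330 values kept direction and side of the threshold, 8 newly passed (Glb1, Idua, Gaa and Npc2 without GM-CSF replicate 1, and Arsb, Manba, Acp2 and Tfeb without GM-CSF replicate 2), 4 lost the call (Fuca1 and Sgsh without either M-CSF array) and 10 turned sign. The genes that did not pass may hold differences within their intervals. In the simulated data 0% of changes of 0.5 and 62% of changes of 1 were recovered. Those data held far fewer changed genes than the real fit called, and equal spread in both groups, so these shares do not carry over.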
